A study of Mus musculus with 12 samples.

Results

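The genes described here are 34 genes of glucose breakdown and of the response to low oxygen, taken by their mouse symbols. They comprise the enzymes that turn glucose into lactate, the carriers of glucose and lactate, regulators of flux, the oxygen-sensing factor HIF-1 alpha with its hydroxylases, and genes known as targets of that factor. The symbols matched 35 of the 52636 gene identifiers counted, since Aldoa has a second identifier, and 31 of the 35 were among the 16674 genes with enough reads to test. Paw joint RNA came from 12 mice in 3 groups of 4, with 1 animal behind each library. Naive mice received anti-gp120, an antibody used as a negative control. A further 8 mice received K/BxN serum, whose autoantibodies bring on a transient, passively transferred joint inflammation, and either the same anti-gp120 antibody (called control 1 to 4 below) or 6F2, an agonistic antibody to the inhibitory myeloid receptor SIRPa (anti-SIRPa 1 to 4). Tissue was taken at day 7 after serum. The sources used here do not give the strain, sex or age of the mice. Replicate numbers name animals and pair nothing across groups.

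Glycolysis splits glucose into pyruvate, and lactate dehydrogenase reduces pyruvate to lactate where oxygen is short or flux is high. Several steps have an isoform made mainly in skeletal muscle fibres beside a form made in most cells: phosphofructokinase (Pfkm against Pfkl and Pfkp), phosphoglycerate mutase (Pgam2 against Pgam1), enolase (Eno3 against Eno1) and glucose carriers (Slc2a4, which is GLUT4, against Slc2a1, which is GLUT1). In oxygen, prolyl hydroxylases encoded by Egln1 and Egln3 mark HIF-1 alpha protein for destruction. When oxygen falls the protein is stabilised and binds the core letters ACGTG or GCGTG in front of its targets, many of them glycolytic genes. HIF-1 alpha is regulated mainly at the protein level, which RNA counts do not measure. In inflamed joints both hypoxia and glycolytic leukocytes are well known, and a paw sample also holds muscle, skin, bone, fat and vessels.

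Promoter sequences are shown for 4 members whose RNA differed between naive and arthritic joints, as examples of promoters with the core letters ACGTG or GCGTG. They are the 250 bases before the transcription start in RefSeq on GRCm38.p6, printed 5′ to 3′ on the strand of the gene, with the core letters on either strand in capitals (a match on the opposite strand reads CACGT or CACGC) and overlapping matches joined. Slc16a3 encodes MCT4, a lactate exporter. Ldha encodes lactate dehydrogenase A, Eno3 the muscle enolase and Hif1a the oxygen-regulated factor itself.
Slc16a3, chr11:120948817-120949066, + strand: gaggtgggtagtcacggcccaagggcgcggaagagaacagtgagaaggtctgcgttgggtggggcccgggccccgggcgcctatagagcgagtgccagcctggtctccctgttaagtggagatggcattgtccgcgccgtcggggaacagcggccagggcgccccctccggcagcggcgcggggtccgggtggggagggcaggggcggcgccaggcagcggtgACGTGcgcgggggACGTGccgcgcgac
Ldha, chr7:46845554-46845803, + strand: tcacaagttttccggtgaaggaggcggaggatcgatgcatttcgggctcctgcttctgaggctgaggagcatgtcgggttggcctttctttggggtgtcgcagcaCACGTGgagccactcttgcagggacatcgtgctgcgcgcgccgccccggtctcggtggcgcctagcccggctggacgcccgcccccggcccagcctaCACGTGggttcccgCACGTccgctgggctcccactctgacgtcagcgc
Eno3, chr11:70656926-70657175, + strand: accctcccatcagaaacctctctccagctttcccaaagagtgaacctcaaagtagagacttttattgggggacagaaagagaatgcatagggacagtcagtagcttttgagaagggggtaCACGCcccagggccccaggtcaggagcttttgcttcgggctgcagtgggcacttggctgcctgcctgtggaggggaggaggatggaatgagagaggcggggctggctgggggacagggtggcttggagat
Hif1a, chr12:73907617-73907866, + strand: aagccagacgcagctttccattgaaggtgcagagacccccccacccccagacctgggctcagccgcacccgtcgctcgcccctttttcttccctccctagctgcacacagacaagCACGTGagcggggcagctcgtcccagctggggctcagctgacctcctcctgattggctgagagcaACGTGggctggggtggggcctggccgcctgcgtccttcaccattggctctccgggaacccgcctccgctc
In the Slc16a3 promoter ACGTG stood on the gene's strand at -27 and -14 from the start. In the first Ldha window there were matches at -145, -144, -48, -47 and -34, the overlapping ones forming CACGTG, and GCGTG followed at 26 and 38 after the start. The Eno3 window held GCGTG on the opposite strand at -130. The Hif1a window held CACGTG with overlapping matches at -135 and -134, and ACGTG at -70. Windows running from 250 bases before to 50 bases after a start were found for 32 of the 34 symbols, and not for Slc2a4 and Angptl4. Of the 49 windows of members, 37 (75.5%) held ACGTG or GCGTG on either strand, against 43.8% of all 32851 promoter windows and 59.5% of the 14365 windows of tested genes. Pgam2, Gpi1 and Tpi1 had no match in the window used. A match describes these letters only and shows no binding.

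Total counts ran from 6893969 in control 2 to 17597920 in anti-SIRPa 1. Before any gene is read, control 1 must be set apart: it carries an arthritis label, yet on the lists of muscle, neutrophil, macrophage and fibroblast markers it lay within or below the naive range. Its summed neutrophil markers were at 24.3 CPM (counts relative to library size, scaled for library composition by TMM) against 15.6 to 32.3 in naive joints, 402 in control 2, 189.7 in control 3 and 88.5 in control 4. Its macrophage markers summed to 391 CPM against 463 to 501 in naive joints and 852, 875 and 866 in the controls 2, 3 and 4. Skeletal muscle genes were a large part of the RNA. A list of 20 muscle fibre genes took 20.3% to 28.7% of counts in naive libraries, 24.3% in control 1, 14.3%, 15.8% and 20.2% in controls 2, 3 and 4, and 15.6% to 24.8% after anti-SIRPa, where anti-SIRPa 4 was lowest. None of these 20 genes was at 0 in any library. In bulk tissue, fewer cells of a type and less RNA per cell cannot be told apart. Naive 4 and anti-SIRPa 2 held hardly any skin (10 epidermal markers took 0.00347% and 0.00426% of counts, against 1.14% in naive 1 and 1.67% in anti-SIRPa 4). Olfactory, vomeronasal and taste receptor genes together reached 528 CPM in control 2 and 226.5 CPM in control 4. They lay at 10.1 to 29.5 CPM in the remaining libraries.

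Per length, forms abundant in muscle were the highest members. On the TPM scale, which divides counts by the length of all annotated exons of a gene, naive joints held 3468 ± 285 of Pgam2 (mean ± SD, n = 4 mice here and below), 3067 ± 447 of Eno3, 2620 ± 271 of Aldoa, the aldolase of muscle and most other cells, and 1867 ± 218 of Pfkm. Tpi1 (triosephosphate isomerase) followed at 409 ± 43.4, Pkm (pyruvate kinase) at 381 ± 33.99 and Hk2, the insulin-responsive hexokinase of muscle, at 294 ± 38.1. At the other end stood genes that most cells use heavily. Gapdh, the glyceraldehyde phosphate dehydrogenase often taken as a reference gene, was listed with 44 counts in all 12 libraries together and never exceeded 0.588 CPM. Pgam1 had 32 counts in all and Pgk1, phosphoglycerate kinase, 222.

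These low values go with shared sequence. Of the 50-base windows in the coding transcripts of Gapdh, 78.3% occur letter for letter in transcripts of other genes, 222 of them in number. The share was 72.2% for Eno1, 68.0% for Pgk1, 48.9% for Bnip3 and 41.5% for Pgam1, then 28.1% for Pkm, 27.0% for Ldhb, 19.6% for Gpi1, 15.9% for Ldha, 11.2% for Aldoa and 7.5% for Tpi1. It was 0.5% or less for the other members. The sources used here do not say how reads that match more than 1 gene were counted, so the levels of Gapdh, Pgk1, Pgam1, Eno1 and Bnip3 are uncertain, and so is the share of a muscle isoform against Eno1 or Pgam1. The part of shared sequence in their low counts was not tested. Gapdh, Pgam1, the hypoxia-induced carbonic anhydrase Car9 (0 to 0.794 CPM) and the second Aldoa identifier (0 to 0.613 CPM) had too few reads to test, as 3 counts correspond to 0.171 to 0.435 CPM here.

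**Figure D1:**
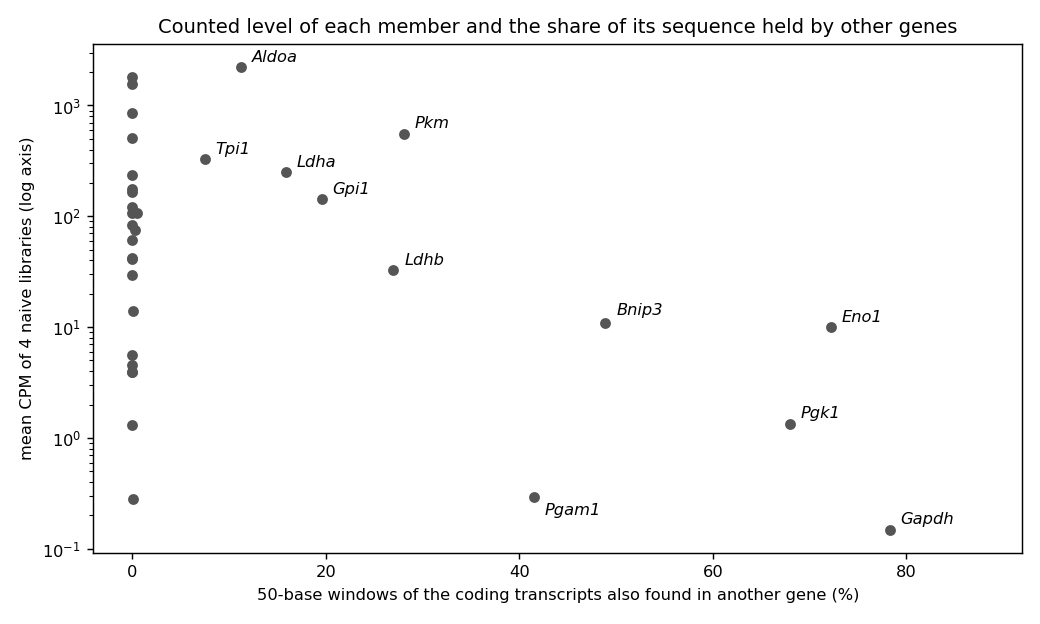
Mean TMM-scaled CPM of each member in the 4 naive libraries (vertical, log axis) against the percentage of 50-base windows of its coding transcripts that also occur in transcripts of another gene (horizontal). Each point is 1 member; Gapdh, Pgk1 and Pgam1 combine shares of 78.3%, 68.0% and 41.5% with means of at most 1.35 CPM.

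The first comparison, control-antibody arthritis against naive joints, asks what the disease changed. Several glycolytic genes were lower in the arthritic joints and Hif1a RNA was higher, though control 1 lay inside the naive range for Hif1a. Of the 31 tested members 6 fell, namely the muscle isoforms Eno3, Pgam2 and Slc2a4, the lactate exporter Slc16a3, Ldha and Tpi1. A further 2 rose, Hif1a about 2.05-fold and Angptl4, a lipoprotein lipase inhibitor and hypoxia target, 13.3-fold. Calls rest on edgeR's quasi-likelihood test with an adjusted p under 0.05. Among all 16674 genes tested, 4.45% fell and 5.87% rose by the same rule. The median member log2 fold change was -0.43, with 6 of 31 above 0, against a median of 0.03 over all tested genes. By a second rule, that all 4 values of one group lie beyond all 4 of the other, 7 members were lower (the 6 that fell and Pgk1) and only Angptl4 was higher, against 6.47% and 6.02% of all genes.

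**Figure D2:**
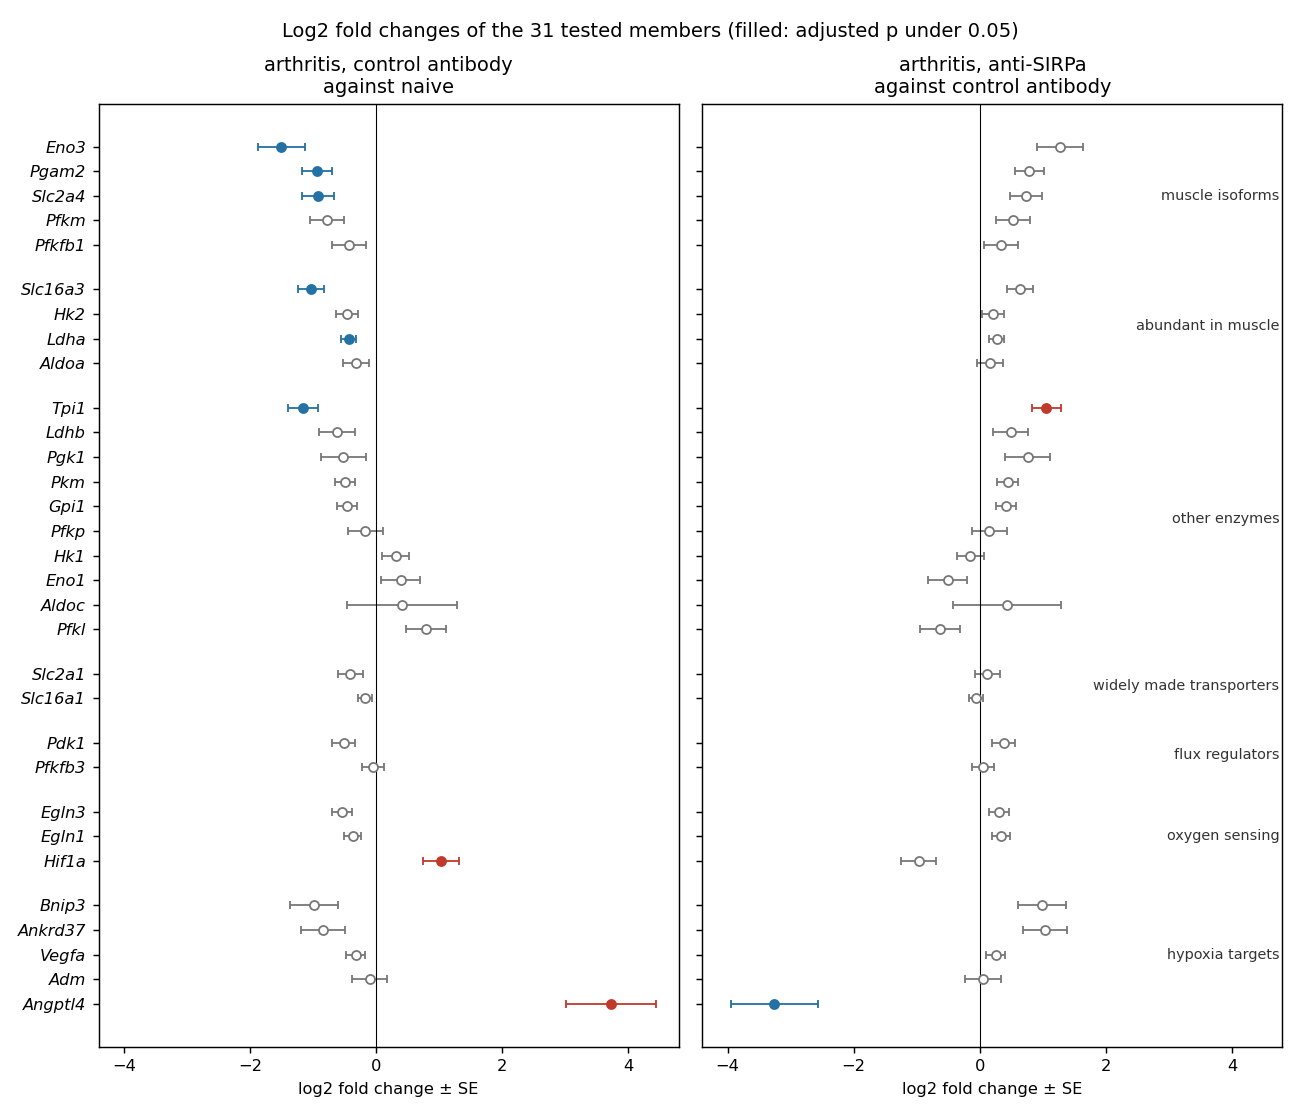
Log2 fold change ± SE (horizontal) of the 31 tested members, grouped by role, for control-antibody arthritis against naive (left) and anti-SIRPa against control antibody (right); filled symbols passed an edgeR adjusted p of 0.05, red higher and blue lower. On the left 8 members are filled, with Eno3 at -1.50 and Angptl4 at 3.73; on the right only Tpi1 and Angptl4 are filled. Both panels use the same 4 control libraries.

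Muscle isoforms are described first. Eno3, the enolase of muscle fibres (ENSMUSG00000060600, GRCm38 chromosome 11, 70657202 to 70662513), was at 1424, 1573, 1273 and 1935 CPM in naive 1 to 4, at 1094, 287, 287 and 521 CPM in control 1 to 4, and at 1358, 1479, 1356 and 1101 CPM in anti-SIRPa 1 to 4. All controls lay below all naive joints, control 1 nearest to them, and all anti-SIRPa joints lay above all controls. The log2 change of Eno3 from naive was -1.50 ± 0.37 (SE; edgeR adjusted p = 0.025). Pgam2, the muscle phosphoglycerate mutase (ENSMUSG00000020475, chromosome 11, 5801640 to 5803733), was at 748, 794, 849.6 and 996 CPM in naive joints, 682, 303, 309.9 and 467 CPM in controls and 797, 860.1, 751 and 625 CPM after anti-SIRPa. Controls 2 and 3 were lowest, naive and control values did not overlap, and the change was -0.94 ± 0.24 (edgeR adjusted p = 0.0266). Slc2a4, the insulin-responsive glucose carrier GLUT4 of muscle and fat (ENSMUSG00000018566, chromosome 11, 69942539 to 69948188), read 213, 220.1, 222 and 280.5 CPM in naive joints, 202, 88.1, 84.0 and 119.6 CPM in controls and 232, 220.4, 222 and 146 CPM after anti-SIRPa. The groups naive and control again did not overlap, though control 1 lay just under the lowest naive joint, and the change was -0.92 ± 0.25 (edgeR adjusted p = 0.0381).

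Pfkm, the phosphofructokinase of muscle, did not pass. It was at 1563, 1657, 1808 and 2231 CPM in naive joints, at 1790, 693, 748 and 1026 CPM in controls and at 1677, 1644, 1669 and 1147 CPM after anti-SIRPa. Control 1 stood inside the naive range and the controls 2, 3 and 4 below it, which left a log2 difference of -0.77 ± 0.27 (edgeR adjusted p = 0.0847). Pfkfb1, which makes and degrades the phosphofructokinase activator fructose 2,6-bisphosphate in liver and muscle, ranged from 5.20 to 6.52 CPM in naive joints and from 2.82 to 6.53 CPM in controls, a difference of -0.43 ± 0.27 (edgeR adjusted p = 0.317). Of the 5 muscle isoforms 3 thus fell, with a median log2 change of -0.92.

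Muscle markers are given beside these values. All 20 genes of the muscle list had a log2 difference below 0 in controls against naive, with a median of -0.66, and 5 of the 20 passed the test. Of 8 genes of slow fibres 7 fell, with a median of -1.05. Of 10 genes of fast fibres 1 fell, with a median of -0.54, and the difference between these lists was not tested. Set against the mean log2 CPM of the 20 muscle genes in the same library, Pfkm lay at -1.24 to -1.06 in naive joints and at -1.24 to -1.04 in controls, and Pgam2 at -2.40 to -2.15 and -2.47 to -2.24. Slc2a4 lay at -4.23 to -4.09 in naive joints and at -4.35 to -4.02 in controls. For these 3 muscle isoforms the groups overlapped on this scale.

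Eno3 differed from these 3 isoforms on the same scale. It lay at -1.37, -1.31, -1.57 and -1.44 in naive joints, at -1.78, -2.32, -2.58 and -2.21 in controls and at -1.51, -1.46, -1.54 and -1.37 after anti-SIRPa. Every control, control 1 included, was below every naive joint and every anti-SIRPa joint. The muscle list itself was widely spread. Its log2 differences between control and naive ran from -2.48 to -0.18 (median -0.66), and Eno3 at -1.50 lay within that range. Between anti-SIRPa and control they ran from 0.10 to 1.84, with Eno3 at 1.27. Only 0.462% of all tested genes were lower relative to the muscle list without overlap in controls against naive, and 0.468% were higher after anti-SIRPa against controls; among the 31 members Eno3 was the only one in either direction. Aldoa showed the reverse, at -0.93, -0.95, -0.73 and -0.99 in naive joints, -0.64, -0.09, -0.19 and -0.38 in controls and -0.86, -0.98, -0.85 and -0.86 after anti-SIRPa. Aldoa, Gpi1, Pfkfb3, Pdk1, Egln1 and Angptl4 were the 6 members higher than naive relative to the muscle list without overlap, a place they share with 24.6% of all genes. Against controls, Aldoa was the 1 member lower on this scale after anti-SIRPa, as were 9.23% of all genes.

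**Figure D3:**
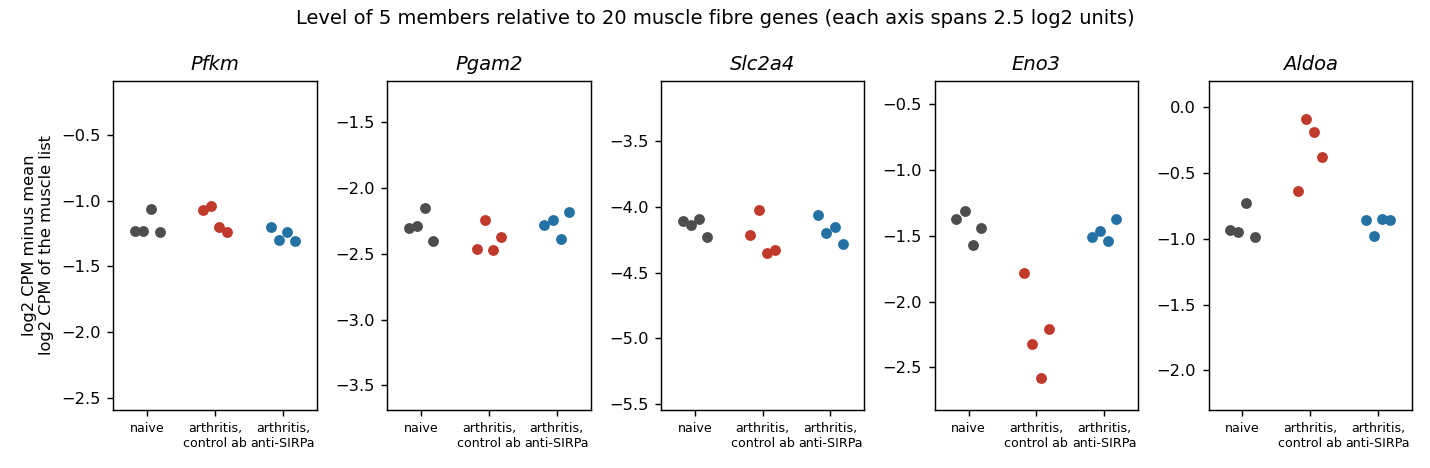
Log2 CPM of 5 members minus the mean log2 CPM of 20 muscle fibre genes in the same library (vertical, log2 units, each axis spanning the same width), by group; each point is 1 mouse. Pfkm, Pgam2 and Slc2a4 overlap across groups, the 4 Eno3 controls (-2.58 to -1.78) lie below all other joints and the 4 Aldoa controls (-0.64 to -0.09) above all naive joints.

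Members that are abundant in muscle but made elsewhere too were lower for 2 of 4 tested. Slc16a3, the lactate exporter MCT4 of fast fibres and of activated leukocytes (ENSMUSG00000025161, chromosome 11, 120948480 to 120960868), was at 109.7, 103, 117 and 156 CPM in naive joints, 82.45, 57.4, 50.2 and 47.6 CPM in controls and 106, 116, 72.3 and 75.9 CPM after anti-SIRPa. All controls lay below all naive joints, and the change was -1.03 ± 0.21 (edgeR adjusted p = 0.0131). Ldha, the lactate dehydrogenase subunit favoured in glycolytic tissue (ENSMUSG00000063229, chromosome 7, 46841475 to 46855627), read 230.2, 251, 251 and 266 CPM in naive joints, 223, 165, 173 and 179 CPM in controls and 219, 235, 217 and 224 CPM after anti-SIRPa. The change was small, -0.43 ± 0.12, with no overlap between naive and control (edgeR adjusted p = 0.034).

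Hexokinase 2 and aldolase A did not pass. Hk2 was at 446, 441, 532 and 626 CPM in naive joints, at 461, 293, 354 and 375 CPM in controls and at 480.3, 488, 431 and 317 CPM after anti-SIRPa. Its difference from naive was -0.46 ± 0.18 (edgeR adjusted p = 0.115), with control 1 inside the naive range. Aldoa was at 1932, 2012, 2273 and 2656 CPM in naive joints, 2414, 1341, 1503 and 1852 CPM in controls and 2123, 2062, 2187 and 1558 CPM after anti-SIRPa, a difference of -0.32 ± 0.21 between control and naive (edgeR adjusted p = 0.328).

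Among the 10 tested enzymes made in most tissues only Tpi1, which interconverts the triose phosphates, fell. Tpi1 (ENSMUSG00000023456, chromosome 6, 124810586 to 124814296) was at 278, 337, 305 and 391 CPM in naive joints, 233, 119, 96.2 and 137.5 CPM in controls and 332, 356, 256 and 266 CPM after anti-SIRPa. Controls lay below every naive and every anti-SIRPa joint. The change from naive was -1.16 ± 0.24 (edgeR adjusted p = 0.0131). On the opposite strand Tpi1 overlaps Spsb2, and the sources used here do not say whether counting took strand into account. Relative to the muscle list Tpi1 was at -3.75 to -3.53 in naive joints and -4.16 to -3.59 in controls, which overlapped.

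The remaining enzymes pointed both ways and none passed. Hk1, the hexokinase of most tissues, was at 50.8, 43.7, 40.0 and 30.0 CPM in naive joints and 41.5, 62.3, 50.4 and 49.3 CPM in controls. Pfkl, the liver-type phosphofructokinase that also serves neutrophils, was at 19.6, 13.1, 13.85 and 8.74 CPM in naive joints, 14.7, 23.9, 36.3 and 21.01 CPM in controls and 16.8, 9.98, 11.8 and 23.2 CPM after anti-SIRPa. The controls 2, 3 and 4 were above all naive joints and control 1 was not, with a log2 difference of 0.79 ± 0.32 (edgeR adjusted p = 0.131). Eno1, the enolase of most cells, read 11.2, 10.1, 10.55 and 7.89 CPM in naive joints and 6.70, 19.97, 15.0 and 10.7 CPM in controls, a difference of 0.39 ± 0.31 (edgeR adjusted p = 0.442). After anti-SIRPa Eno1 was at 8.46, 5.86, 8.16 and 14.15 CPM. Where Pfkl, Hk1 and Eno1 were highest among the controls, neutrophil, macrophage and fibroblast markers were also above naive. These 3 genes were highest among treated joints in anti-SIRPa 4, where neutrophil markers summed to 21.85 CPM, inside the naive range. Its macrophage markers summed to 628 CPM, above naive, and its fibroblast markers to 16440 CPM, within the naive range. The part of these markers in the levels was not tested.

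Ldhb, the lactate dehydrogenase subunit of oxidative tissue, was at 28.7, 35.1, 30.7 and 36.1 CPM in naive joints, 37.0, 15.9, 13.1 and 18.85 CPM in controls and 30.1, 28.3, 39.6 and 21.6 CPM after anti-SIRPa. Its difference from naive was -0.62 ± 0.28 (edgeR adjusted p = 0.168). Pfkp, the platelet-type phosphofructokinase, was at 55.9, 36.4, 49.5 and 26.0 CPM in naive joints and 31.01, 43.35, 41.1 and 34.15 CPM in controls, which overlapped. Pkm (-0.49 ± 0.16, edgeR adjusted p = 0.0725) and Gpi1, glucose phosphate isomerase (-0.46 ± 0.16, edgeR adjusted p = 0.0842), leaned lower in controls. Pgk1 was at 1.27 to 1.41 CPM in naive joints and 0.529 to 1.18 CPM in controls, without overlap but at few reads (edgeR adjusted p = 0.37). Aldoc, the aldolase of brain, was at 0.153 to 2.62 CPM in naive joints, 0.302 to 2.98 CPM in controls and 0.515 to 6.28 CPM after anti-SIRPa.

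Neither of the widely made carriers passed. Slc2a1, the basal glucose carrier GLUT1, was at 36.2, 27.7, 27.6 and 27.1 CPM in naive joints, 19.8, 21.3, 30.8 and 17.0 CPM in controls and 27.15, 19.2, 19.5 and 30.7 CPM after anti-SIRPa, with a difference of -0.41 ± 0.20 between control and naive (edgeR adjusted p = 0.195). Slc16a1, the lactate carrier MCT1, was at 60.8, 61.7, 60.9 and 60.6 CPM in naive joints, 54.75, 61.7, 54.6 and 44.7 CPM in controls and 52.5, 54.6, 44.1 and 55.6 CPM after anti-SIRPa. The naive values were very close together. Of the flux regulators, Pdk1, the kinase that shuts pyruvate dehydrogenase, differed by -0.51 ± 0.18 (edgeR adjusted p = 0.0895), and Pfkfb3, the inducible activator of phosphofructokinase, by -0.05 ± 0.17 (edgeR adjusted p = 0.87).

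Per kilobase, the forms typical of muscle made up most of their families in every library: Eno3 97.8% to 99.9% of Eno3 and Eno1, Pfkm 96.3% to 99.5% of the phosphofructokinases, Hk2 86.7% to 96.8% of Hk2 and Hk1, Slc2a4 73.3% to 92% of both glucose carriers and Ldha 72.2% to 86.2% of both lactate dehydrogenases. These ranges divide by all annotated exons and cover all 12 libraries. By the longest transcript the lowest shares were 94.9% for Eno3, 94.7% for Pfkm, 78% for Hk2, 73.6% for Slc2a4 and 79.8% for Ldha. The Eno3 share stays uncertain, because Eno1 shares much sequence with other genes. With either length the groups overlapped. The lactate carriers were the exception. Slc16a3 held 60%, 58%, 61.6% and 68.2% of Slc16a3 and Slc16a1 in naive joints, 55.6%, 43.6%, 43.4% and 47% in controls and 62.7%, 63.9%, 57.7% and 53.2% after anti-SIRPa, so that all controls lay below all naive joints. No test was run on these shares.

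Of the oxygen-sensing genes only Hif1a passed. Hif1a (ENSMUSG00000021109, chromosome 12, 73901375 to 73947530) was at 109.5, 84.3, 76.35 and 62.5 CPM in naive joints, 88.7, 209, 225 and 159 CPM in controls and 72.2, 71.8, 77.5 and 125.5 CPM after anti-SIRPa. The controls 2, 3 and 4 lay above every naive joint, control 1 among them. The change was 1.03 ± 0.28 (edgeR adjusted p = 0.0401). Hif1a overlaps the gene models Gm15283 on the opposite strand and Gm49321 on its own. Egln3, a hypoxia-induced prolyl hydroxylase, ranged from 155 to 190.3 CPM in naive joints and from 82.8 to 161 CPM in controls (-0.54 ± 0.16, edgeR adjusted p = 0.0522). Egln1, the main prolyl hydroxylase, ranged from 158 to 184 CPM and from 113 to 174 CPM (-0.37 ± 0.14, edgeR adjusted p = 0.112).

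Markers of other cell types are given beside Hif1a. Of 11 macrophage markers 7 rose and none fell in controls against naive, with a median log2 change of 1.01, and of 7 tested neutrophil markers 4 rose. Of 10 fibroblast markers 4 rose. Of 8 endothelial markers none rose and 1 fell, the angiopoietin receptor Tek (-0.46, edgeR adjusted p = 0.0247), with a median of 0.23. The summed macrophage markers spanned 463 to 501 CPM in naive joints, 391 to 875 CPM in controls and 514 to 709 CPM after anti-SIRPa, and none of the 11 was at 0 in any library. Their part in the Hif1a result was not tested.

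Of 5 tested hypoxia targets only Angptl4 passed. Angptl4 (ENSMUSG00000002289, chromosome 17, 33773750 to 33781830) was at 3.105, 3.58, 6.68 and 2.299 CPM in naive joints, 8.35, 47.3, 109.7 and 43.6 CPM in controls and 3.41, 3.67, 8.09 and 6.68 CPM after anti-SIRPa. All controls exceeded all naive and anti-SIRPa joints, control 1 narrowly. The change was 3.73 ± 0.71 (edgeR adjusted p = 0.0152). Fat is a known source of Angptl4. The 8 adipocyte markers had log2 differences from -0.39 to 0.32 with a median of -0.22, and their sums spanned 302 to 348 CPM in naive joints and 179.9 to 461 CPM in controls. Their part in the Angptl4 result was not tested.

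The other hypoxia targets had differences below 0 and did not pass. Bnip3, a mitophagy receptor, was at 5.70 to 14.4 CPM in naive joints and 1.97 to 10.01 CPM in controls (-0.98 ± 0.38, edgeR adjusted p = 0.115). Ankrd37, an ankyrin repeat protein, was at 2.67 to 6.54 CPM and 1.58 to 3.06 CPM (-0.84 ± 0.35, edgeR adjusted p = 0.135). Vegfa, the main vessel growth factor, differed by -0.32 ± 0.15 (edgeR adjusted p = 0.171) and Adm, the vasodilator adrenomedullin, by -0.10 ± 0.28 (edgeR adjusted p = 0.851).

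**Figure D4:**
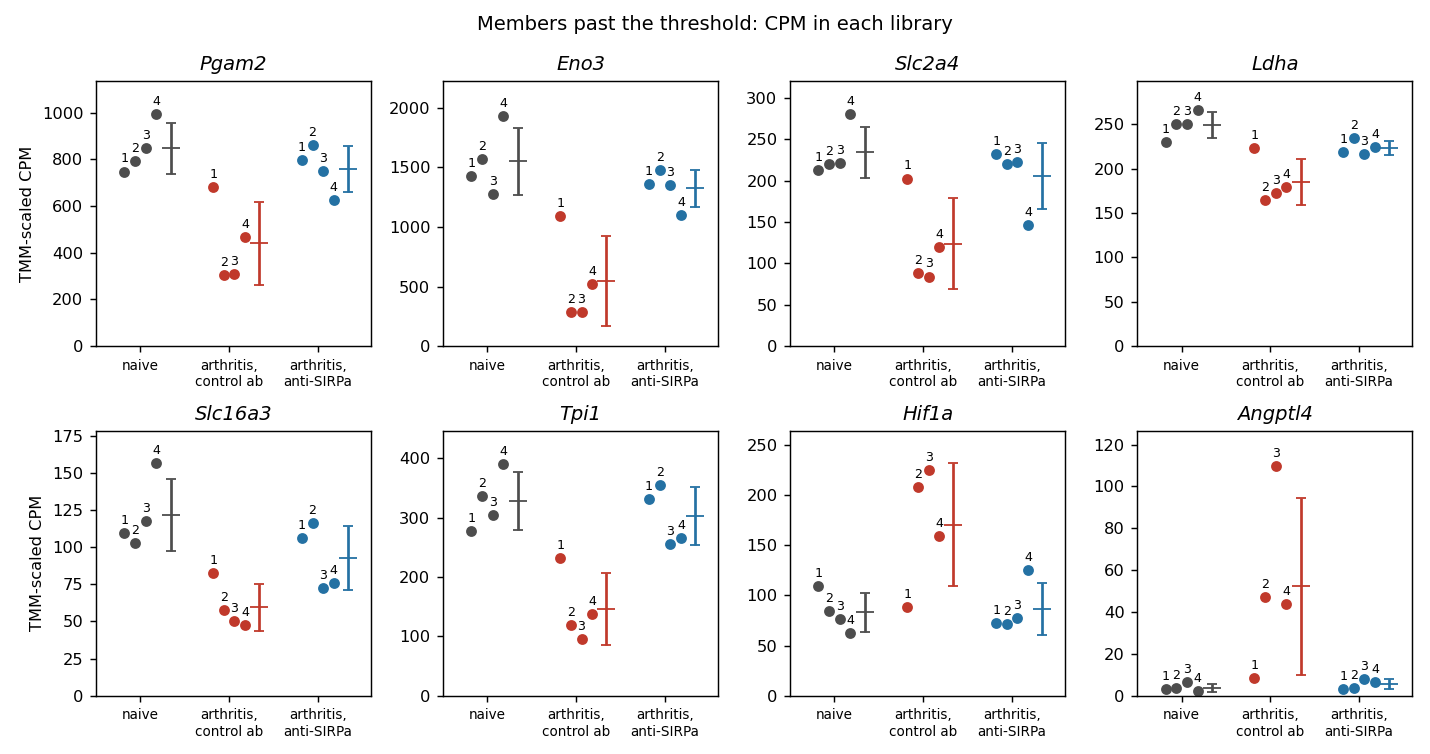
TMM-scaled CPM (vertical, linear) of the 8 members past the threshold in control-antibody arthritis against naive, by group; numbered points are mice 1 to 4 and bars are mean ± SD. Control 1 lies nearest to the naive joints in each panel, and Hif1a is the 1 gene in which it lies among them.

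The calls of this comparison depended on single libraries. Slc16a3 and Tpi1 stayed past the threshold whichever of the 12 libraries was left out. Angptl4 lost its call without naive 4 (edgeR adjusted p = 0.0523). For Eno3 it was lost when naive 1, 2, 4 or any control but control 1 was left out, with an edgeR adjusted p between 0.0523 and 0.0709. For Pgam2 it was lost when naive 2, 3, 4 or any control but control 1 was left out (between 0.0562 and 0.0867). Ldha lost it without any 1 naive joint, control 2, 3 or 4 or anti-SIRPa 1 (edgeR adjusted p from 0.0515 to 0.101). Slc2a4 lost it in 10 of the 12 cases, all but control 1 and anti-SIRPa 4 (0.0513 to 0.109), and Hif1a in 9, all but naive 1, control 1 and anti-SIRPa 4 (0.0521 to 0.12). Hif1a also missed the threshold with limma-voom (adjusted p = 0.0554), and in edgeR with no filter on low counts (adjusted p = 0.111). With no filter Eno3 (edgeR adjusted p = 0.0831) and Slc2a4 (0.0841) missed it too. When only the naive and control libraries were fitted, Slc16a3 and Tpi1 were the members that passed in edgeR, while Hif1a was at an adjusted p of 0.0699 and Angptl4 at 0.0541.

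Leaving out control 1 had the opposite effect. This library was singled out for its likeness to naive joints in these same data. A wider gap without it, here or against anti-SIRPa, is therefore no separate evidence. Without it 21 members passed in edgeR, 18 lower and 3 higher, and all 8 named above were among them. Eno3 stood at -2.10 (edgeR adjusted p = 2.67e-05), Tpi1 at -1.49 (3.37e-05) and Pfkm at -1.15 (0.000681). Bnip3 at -1.43 (edgeR adjusted p = 0.00737), Ldhb at -1.04 (0.00108) and Pdk1 at -0.78 (0.000324) passed as well, and Pfkl joined Hif1a and Angptl4 as higher, at 0.96 (0.0481). Among all 17271 genes tested in that fit, 12.7% were lower and 14.5% higher. With the muscle list mean as a covariate no member passed in edgeR, and the log2 differences were -0.51 for Eno3 (adjusted p = 0.228), -0.53 for Tpi1 (0.269), 0.00 for Hif1a (0.999) and 1.60 for Angptl4 (0.529). Other members lay further below 0 in that fit, which 31 of all genes passed: Slc2a1 was at -0.80, Pfkp at -0.81, Vegfa at -0.56 and Eno1, above 0 without the covariate, at -0.80. Without both naive 4 and anti-SIRPa 2, the libraries with hardly any skin, no member passed in edgeR. Nor did any without both control 2 and control 4, the libraries with most RNA of olfactory, vomeronasal and taste receptor genes. The log2 differences were then -1.39 and -1.19 for Eno3, -1.08 and -1.01 for Tpi1, -0.90 and -0.89 for Slc16a3, 0.91 and 0.89 for Hif1a and 3.54 and 3.88 for Angptl4, in that order of the left-out pairs.

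Further genes of the pathways were taken from fixed lists, with up to 5 of the smallest p values named in each direction. Of 33 tested genes of glucose and glycogen use outside the members, 4 fell and none rose: the pyruvate dehydrogenase subunits Dlat (-0.80 ± 0.14, edgeR adjusted p = 0.00917) and Pdha1 (-0.71), glycogen synthase Gys1 (-1.09) and the mitochondrial pyruvate carrier subunit Mpc2 (-0.91). Of 39 tested genes of the hypoxia response outside the members, 7 rose and 3 fell. Ddit4, a hypoxia-induced inhibitor of mTOR, rose from 8.71 ± 1.45 to 28.7 ± 7.34 CPM (1.71 ± 0.20, edgeR adjusted p = 0.00258). Apln, a vascular peptide, rose by 3.42, the chemokine receptor Cxcr4 by 2.15 and the collagen-modifying Plod2 by 1.53 on the log2 scale. The transferrin receptor Tfrc (-1.86), Epas1, which encodes HIF-2 alpha (-0.72), and the HIF partner Arnt2 (-0.73) fell. The median log2 difference was -0.12 for the first list and 0.09 for the second, against 0.03 for all genes. Among all 16674 tested genes 4.45% fell and 5.87% rose.

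**Figure D5:**
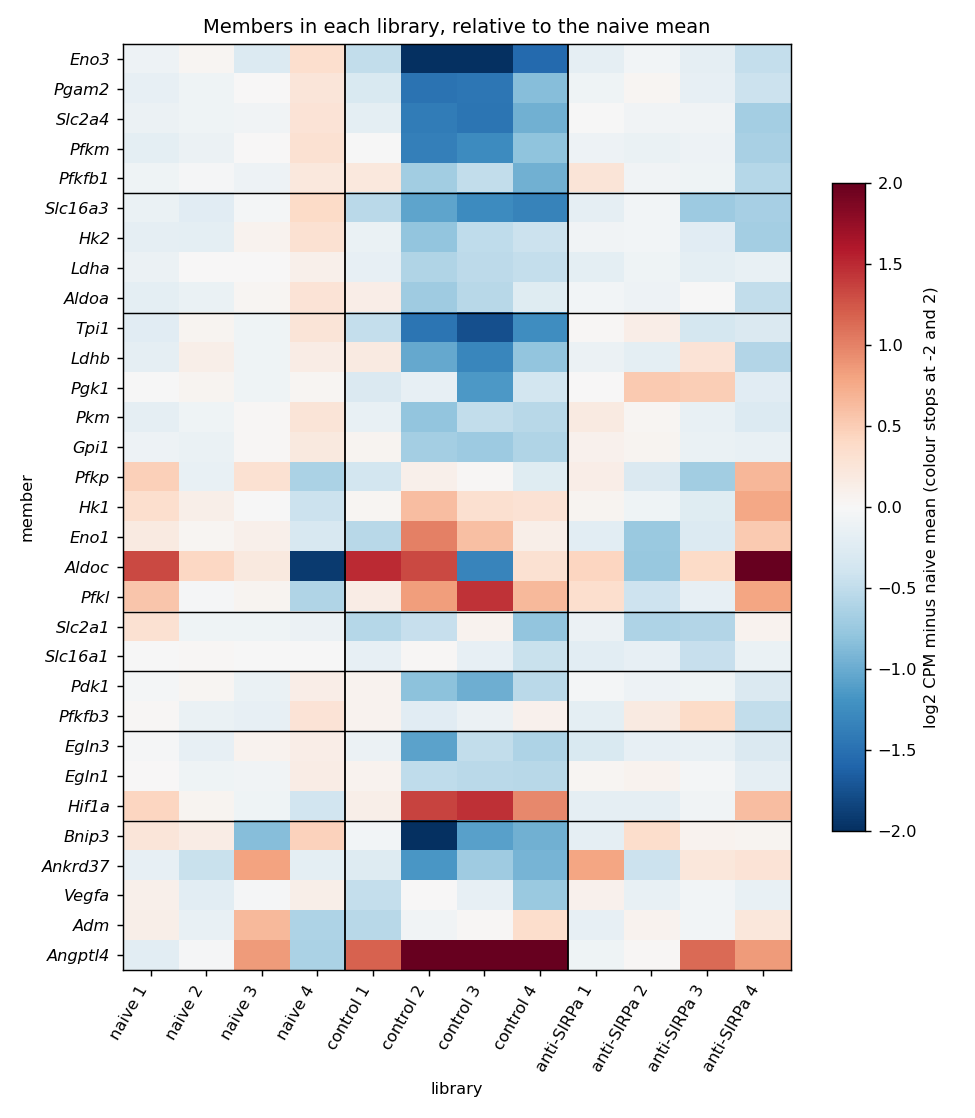
Log2 CPM of the 31 tested members (rows, grouped by role) in the 12 libraries (columns), each minus the gene's mean in the 4 naive libraries; colour stops at 2 log2 units either way. Controls 2, 3 and 4 are low in the rows of Eno3, Pgam2, Slc2a4, Pfkm and Tpi1, high in those of Hif1a and Angptl4 and above the naive mean in those of Pfkl, Hk1 and Eno1, control 1 lies near naive in most rows, and the anti-SIRPa columns are mostly pale, anti-SIRPa 4 least so.

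The second comparison asks what the SIRPa agonist changed in arthritic joints. It uses the same 4 control libraries as the first, so opposite signs in both are not independent. Tpi1 rose by 1.05 ± 0.23, to a mean of 302.5 ± 49.1 CPM from 146 ± 60.1 CPM (edgeR adjusted p = 0.0366), and Angptl4 fell 9.58-fold, to 5.46 ± 2.295 CPM from 52.2 ± 42.1 CPM (-3.26 ± 0.69, edgeR adjusted p = 0.0383). No other member of the 31 passed. Over all genes 1.59% rose and 1.7% fell. The median member difference was 0.34, with 25 of 31 above 0, against -0.03 for all genes. By the rule of groups that do not overlap, Eno3 and Tpi1 were higher and Angptl4 lower, against 5.18% and 4.82% of all genes.

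Several members missed the threshold in this comparison. Eno3 differed by 1.27 ± 0.36 (edgeR adjusted p = 0.066), Pgam2 by 0.78 ± 0.23 (0.072) and Slc2a4 by 0.73 ± 0.25 (0.106), and the 5 muscle isoforms had a median of 0.73. Slc16a3 differed by 0.64 ± 0.21 (edgeR adjusted p = 0.0876) and Ldha by 0.27 ± 0.12 (0.167). Hif1a differed by -0.97 ± 0.28 (edgeR adjusted p = 0.0703), where 3 anti-SIRPa joints lay below all controls and anti-SIRPa 4 did not. Among targets, Ankrd37 differed by 1.04 ± 0.35 (edgeR adjusted p = 0.0999) and Bnip3 by 0.99 ± 0.38 (0.14), while Vegfa differed by 0.25 ± 0.15 and Adm by 0.05 ± 0.28. In the same contrast all 20 muscle genes had a difference above 0 (median 0.52, 2 of 20 past the threshold), and the 11 macrophage markers ranged from -1.51 to -0.01 (median -0.56). Of the 8 adipocyte markers 2 rose, Plin1 (1.43 ± 0.30, edgeR adjusted p = 0.0344) and Adipoq (1.46 ± 0.32, 0.0375), with a median of 0.94. The part of these markers in the members' differences, Angptl4 included, was not tested.

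Both calls were fragile. Tpi1 lost its call when any library but naive 4, control 1 or anti-SIRPa 4 was left out (edgeR adjusted p from 0.0519 to 0.112), and Angptl4 when any but naive 4 or control 1 was (0.0517 to 0.122). Without control 3 the Angptl4 difference was -2.59 (edgeR adjusted p = 0.099). Angptl4 also missed the threshold with limma-voom (adjusted p = 0.0707) and in edgeR with no filter (adjusted p = 0.0655), and with only the control and anti-SIRPa libraries fitted neither gene passed (edgeR adjusted p = 0.104 for Tpi1 and 0.11 for Angptl4). Without control 1, 17 members passed in edgeR, 15 higher and 2 lower, against 11.1% higher and 12% lower of all genes. Among them Eno3 differed by 1.87 (edgeR adjusted p = 0.000107), Pgam2 by 1.08 (0.000859), Gpi1 by 0.65 (0.00112) and Hif1a by -1.18 (0.00365).

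Of the further pathway genes, Dlat was the 1 of 33 that rose (0.55 ± 0.14, edgeR adjusted p = 0.049). In the hypoxia list 2 of 39 rose, Tfrc (1.53 ± 0.25) and Epas1 (0.57 ± 0.13), and 5 fell. Among the latter were Apln (-3.01), Lox, which crosslinks collagen (-1.65), Plod2 (-1.58) and Ddit4 (-1.16). The median differences of the lists were 0.13 and -0.03. Among all tested genes 1.59% rose and 1.7% fell in this comparison.

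The third comparison sets anti-SIRPa-treated arthritic joints against naive ones. No member passed in edgeR, DESeq2 or limma-voom, and none reached an unadjusted p under 0.05 in edgeR. Of all genes 0% passed in edgeR, and 675 of 16674 had an unadjusted p under 0.05. Member differences ran from -0.39 for Slc16a3 (± 0.21) to 0.84 for Aldoc (± 0.85), with a median of -0.09 against -0.01 for all genes. Eno3 differed by -0.23 ± 0.36, Tpi1 by -0.12 ± 0.23, Hif1a by 0.06 ± 0.28 and Angptl4 by 0.48 ± 0.67. By the rule of groups that do not overlap, Slc16a1 was lower after anti-SIRPa than in naive joints and no member was higher, against 1.85% and 3.04% of all genes. Values that did not pass are not shown to be equal, and differences well beyond the SE could be missed. In the second comparison Eno3 missed the threshold at 1.27 ± 0.36.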

How the data were processed

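RNA of 12 paw joints was extracted with a silica column kit and made into stranded total RNA libraries, per the labels' protocols. The authors deposited whole-number read counts per gene without normalization, on GRCm38 per the submitters' processing notes. The aligner, the counter, its strand setting and its treatment of reads with more than 1 match were not given in the sources used here. All 12 sample tables equalled the series table. Symbols, coordinates and exon lengths came from GENCODE M21 and promoters from RefSeq.

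Counts were tested with edgeR 4.0.16 in R 4.3.3: filterByExpr by group, TMM scaling, a robust quasi-likelihood fit of all 12 libraries with 1 coefficient per group, and Benjamini-Hochberg adjustment over 16674 genes at 0.05. CPM values use TMM-scaled library sizes, and log2 CPM a prior count of 2. The steps were tested on simulated data. Alternatives were other size factors and filters, DESeq2 1.42.0, limma-voom (limma 3.58.1), fits of 2 groups, a block, a covariate, and libraries left out. All members are reported. Members that passed and the isoform families have values per library, and further pathway genes are named by smallest p, of which 1 is not reported here. Members and lists were chosen with earlier results of these data known. P values measure the spread between mice. The floor of 3 counts covers counting error only, as no molecular identifiers were used.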

Additional observations from a re-analysis of the deposited data

Results flagged for a closer look

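In 9 of 93 groups of 4 joints, 1 member value stood apart from the other 3 by Dixon's gap test, where chance gives about 1 in 20. In anti-SIRPa 4, Pfkm was low at 1147 CPM (nearest joint 1644 CPM) and so was Slc2a4 at 146 CPM (220.4 CPM), whereas Hif1a was high at 125.5 CPM (77.5 CPM) and Aldoc at 6.28 CPM (1.35 CPM). The same library had the lowest muscle share of the treated joints, 15.6% of counts, and the highest epidermal share, 1.67%. Control 1 was high for Gpi1 at 147 CPM (93.6 CPM) and for Egln1 at 174 CPM (117 CPM). Slc2a4 was high in naive 4 at 280.5 CPM (222 CPM), Slc2a1 in naive 1 at 36.2 CPM (27.7 CPM) and Ankrd37 in naive 3 at 6.54 CPM (3.29 CPM).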

How the results depend on the processing

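For control-antibody arthritis against naive, where 10.3% of all tested genes passed, 8 members passed. The count was 14 with DESeq2, 2 with only both compared groups fitted, 4 with the replicate number as a block, and 0 with the muscle list mean as covariate, without naive 4 and anti-SIRPa 2, or without control 2 and control 4. It was 7 to 9 with other size factors, filters, limma-voom or no robust dispersion. Leaving out 1 library gave 2 to 21 members, while 412 to 4694 of all genes passed. For anti-SIRPa against control antibody, where 3.29% of all tested genes passed, 2 members passed. The count was 9 with DESeq2, 1 with no filter, limma-voom or the block, and 0 with only both compared groups fitted, the covariate, or either pair of libraries left out. Leaving out 1 library gave 0 to 17 members, while 0 to 3976 of all genes passed. For anti-SIRPa against naive it was 0 in every setting. No called member changed sign; 89 of 2232 single values did, none of them called. The cause of these changes was not tested. Fits that leave libraries out also hold fewer of them, and the part of that was not tested either. Same-numbered libraries correlated between -0.80 and 0.21 in their deviations from group means, with 1 of 12 pairs over 0.1, and in 2 of 24 cases a library matched its own number best, so the numbers were not taken as pairs. Among isoform shares, 1 family separated the groups naive and control with either gene length. Depth limits Gapdh, Pgam1 and Car9, which hold few counts.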
